A study of Mus musculus with 11 samples.

Results

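Ligands and receptors of the tumour necrosis factor (TNF) superfamily were examined as a gene family in maps of open chromatin from mouse lymphocytes and their precursors. The family was taken as the protein-coding genes of the mm10 annotation named Tnfsf or Tnfrsf with a number, together with Tnf, Lta, Ltb, Ltbr, Fas, Fasl, Cd27, Cd70, Cd40 and Cd40lg. This gave 41 of 21938 protein-coding genes, of which 17 code for ligands and 24 for receptors. Open chromatin was mapped by ATAC-seq, in which a transposase inserts sequencing adaptors into accessible DNA, in 9 libraries. From the thymus came 2 libraries of CD4 single-positive (CD4SP) cells and 2 of NKT cells, and from the bone marrow 3 of common lymphoid progenitors (CLP) and 2 of innate lymphoid cell precursors (ILCP). The labels give C57BL/6 for all mice, and the study's methods give an age of 4 to 8 weeks and 10000 to 50000 sorted cells per library. NKT thymocytes were enriched with CD1d tetramers, CLP were sorted as lineage-negative cells with IL-7Rα, intermediate cKit and Sca-1 and high Flt3, and ILCP as lineage-negative cells with IL-7Rα, α4β7 and eGFP. The methods list a reporter strain with GFP at the Zbtb16 locus, whereas the labels of the ILCP libraries name C57BL/6 alone. The design set NKT against CD4SP within the thymus and ILCP against CLP within the bone marrow, to compare innate-like cells with the adaptive cells or progenitors next to them.

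TNF superfamily ligands are mostly trimeric membrane proteins that can be shed, and each binds receptors with cysteine-rich repeats outside the cell. Receptors with a death domain can start apoptosis, and the others recruit TRAF adaptors and switch on NF-kB and MAP kinase pathways. In lymphocytes the family serves costimulation, survival, killing and, through lymphotoxin, the building of lymphoid organs, which depends on innate lymphoid cells.

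For each library the deposited list gives the position of each peak and a score from the peak caller. Peaks that overlapped a gene body extended by 10 kb on each side were counted for that gene, and peaks of the 9 libraries that shared at least 1 bp were merged into intervals. A gene start was called open when a peak lay within 500 bp of an annotated start of a protein-coding transcript. Scores served only as ranks within a library, and the rank is given as the peak's place in the list in percent, with peaks of equal score placed in order of position, so that 1% is near the top of the list and 99% near its end. This percent depends on the length of the list as well as on the score. Many peaks of a library shared the score 3100 (58 to 1265 of them), so places among these are arbitrary. Giving tied peaks the place of the last of them moved 5 values of 3 family intervals by over 0.1 percentage points, and at most by 1.78. The study's methods give only an overall range of reads, so the depth of each library is unknown, and single peaks carry no error estimate, and the absence of a peak means only that none was called. The lists held 19343 to 41535 peaks. CLP replicate 1 stood apart with 19343 peaks against 41535 and 40136 in the other CLP libraries, so the counts that it moved most are also given without it. ILCP libraries held 26328 and 25771 peaks and thymic libraries 33648 to 38793.

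The family's windows held 165 of the 52396 intervals found within 10 kb of any protein-coding gene. Of the 165, 90 had their midpoint in an intron, 54 between genes, 12 in a UTR and 9 in another exon. A start of a family gene lay within 500 bp of 35 intervals, 8 lay only at the start of a neighbouring gene, and 122 were away from any start. A total of 13 intervals lay in the windows of 2 or more family genes and were counted once. Each gene of Tnf, Lta and Ltb lies within the 10 kb flank of the others, so their peak numbers share most of their peaks.

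The central 200 bp of 10 intervals is printed here because the comparisons turn on them. The first 8 represent the 4 classes of intervals that separated NKT from CD4SP or ILCP from CLP, with the 2 best-ranked of each class whose centre is not in a UTR, a filter that left out the Tnfrsf4 start among the CD4SP-specific intervals and the end of Tnfrsf8 among the CLP-specific ones. The last 2 were chosen after their values were seen, as the best-ranked interval open only in thymus and the interval whose rank differed most between innate-like cells and their comparators. Sequences are the plus strand of mm10 (GRCm38.p6), and capitals mark matches of the following words on either strand: TGTGGT or TGCGGT for Runx, TGACTCA or TGAGTCA for AP-1, CAGCTG or CAGGTG for E proteins, CTTTGAT or CTTTGAA for TCF/LEF, AGATAA or TGATAA for the GATA family, AGGAAGT for Ets factors, AGGTGTGA for T-box factors, and an NF-kB word named here without its letters. An E protein word can overlap the T-box word, and a TCF/LEF word can overlap a GATA word.
NKT and not CD4SP, downstream of Tnfsf14, chr17:57188887-57189086, plus strand: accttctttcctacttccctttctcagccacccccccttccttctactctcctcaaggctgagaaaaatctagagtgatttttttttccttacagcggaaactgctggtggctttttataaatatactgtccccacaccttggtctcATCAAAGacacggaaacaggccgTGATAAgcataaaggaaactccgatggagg
NKT and ILCP and neither CD4SP nor CLP, intron of Tnfrsf8, chr4:145275028-145275227, plus strand: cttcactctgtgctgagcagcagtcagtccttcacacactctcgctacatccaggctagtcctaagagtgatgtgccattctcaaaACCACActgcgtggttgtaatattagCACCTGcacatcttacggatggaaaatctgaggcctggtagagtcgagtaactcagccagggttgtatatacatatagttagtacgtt
CD4SP and not NKT, intron of Vamp1 upstream of Cd27, chr6:125244711-125244910, plus strand: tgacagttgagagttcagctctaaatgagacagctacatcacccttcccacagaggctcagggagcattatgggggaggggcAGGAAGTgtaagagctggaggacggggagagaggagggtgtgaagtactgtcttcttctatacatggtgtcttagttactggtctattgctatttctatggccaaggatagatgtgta
CD4SP and not NKT, intron of Tnfrsf9, chr4:150927472-150927671, plus strand: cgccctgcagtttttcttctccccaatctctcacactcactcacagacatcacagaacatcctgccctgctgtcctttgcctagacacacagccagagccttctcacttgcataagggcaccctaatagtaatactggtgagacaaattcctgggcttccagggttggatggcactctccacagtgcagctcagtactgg
ILCP and not CLP, intron of Tnfrsf9, chr4:150924619-150924818, plus strand: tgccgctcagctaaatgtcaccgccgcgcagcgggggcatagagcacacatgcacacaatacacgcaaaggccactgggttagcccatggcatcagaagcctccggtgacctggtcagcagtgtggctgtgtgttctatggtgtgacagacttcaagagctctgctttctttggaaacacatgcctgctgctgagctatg
ILCP and not CLP, intron of Tnfrsf1a, chr6:125353308-125353507, plus strand: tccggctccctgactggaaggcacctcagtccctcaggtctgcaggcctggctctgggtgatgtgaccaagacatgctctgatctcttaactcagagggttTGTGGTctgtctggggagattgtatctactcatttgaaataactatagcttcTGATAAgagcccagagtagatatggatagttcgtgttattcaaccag
CLP and not ILCP, just upstream of the Tnfsf8 start, chr4:63861483-63861682, plus strand: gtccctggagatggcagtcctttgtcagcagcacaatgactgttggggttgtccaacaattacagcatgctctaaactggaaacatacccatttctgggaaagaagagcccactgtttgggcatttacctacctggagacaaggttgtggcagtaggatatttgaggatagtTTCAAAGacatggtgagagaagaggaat
CLP and not ILCP, intron of Tnfrsf17, chr16:11317430-11317629, plus strand: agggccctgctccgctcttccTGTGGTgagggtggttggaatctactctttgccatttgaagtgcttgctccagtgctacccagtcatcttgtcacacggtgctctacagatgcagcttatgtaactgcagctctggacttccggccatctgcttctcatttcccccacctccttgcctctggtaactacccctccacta
thymus and not bone marrow, between Tnfrsf4 and Tnfrsf18, chr4:156021891-156022090, plus strand: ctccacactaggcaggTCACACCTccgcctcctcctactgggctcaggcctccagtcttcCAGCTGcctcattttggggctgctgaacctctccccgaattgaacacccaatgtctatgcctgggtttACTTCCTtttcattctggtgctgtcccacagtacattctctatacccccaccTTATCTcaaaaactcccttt
open in all 9 libraries with differing rank, intron of Tnfrsf1b, chr4:145236167-145236366, plus strand: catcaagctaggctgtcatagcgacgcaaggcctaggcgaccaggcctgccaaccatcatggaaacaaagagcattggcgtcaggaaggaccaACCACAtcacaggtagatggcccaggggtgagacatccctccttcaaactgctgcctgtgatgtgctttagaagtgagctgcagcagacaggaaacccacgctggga

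Across the family, peaks were more numerous in the thymic than in the bone marrow libraries. The family's windows held 110 and 113 peaks in CD4SP, 103 and 111 in NKT, 38, 91 and 95 in CLP and 53 and 46 in ILCP. The mean was 111.5 ± 2.12 (SD, n = 2) in CD4SP, 107 ± 5.66 (n = 2) in NKT, 74.7 ± 31.8 (n = 3) in CLP and 49.5 ± 4.95 (n = 2) in ILCP. Every thymic library thus held more family peaks than every bone marrow library. Without CLP replicate 1 the CLP mean was 93 ± 2.83 (n = 2), and both remaining CLP libraries were above both ILCP libraries. Scaled to 10000 peaks of the library, the values were 28.6 to 32.7 in thymus, 19.6, 21.9 and 23.7 in CLP and 20.1 and 17.8 in ILCP, so the thymic libraries were still above all others. NKT minus CD4SP was -4.5 peaks, within the spread of the NKT libraries, and ILCP minus CLP was -25.2 peaks, or -43.5 without CLP replicate 1 and -6.83 with an equal number of peaks per library. With the 19343 highest-scoring peaks of each library, the family's windows held 67 to 73 peaks in thymic libraries, 38 to 45 in CLP and 36 and 35 in ILCP. Of the 41 genes, 38 had a peak in at least 1 library. Tnfsf18 (the GITR ligand), Cd70 (the CD27 ligand) and Cd40 had none.

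**Figure D1:**
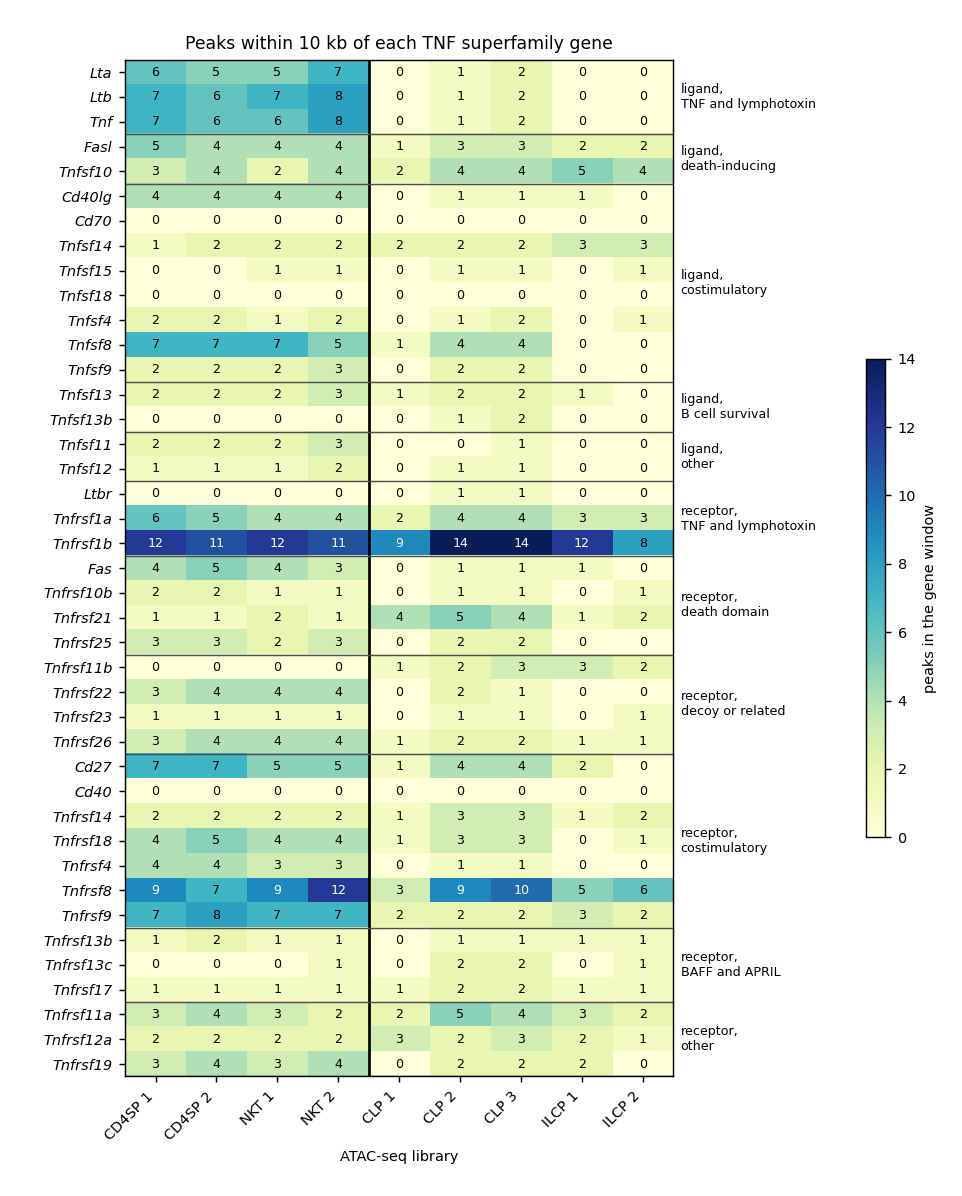
Number of peaks within 10 kb of each of the 41 genes (rows, ordered by role) in each of the 9 ATAC-seq libraries (columns, with a line between the thymic and the bone marrow libraries), with colour and number giving the count. The counts of Tnf, Lta and Ltb run from 5 to 8 in the thymic libraries and from 0 to 2 in the bone marrow libraries, whereas Tnfrsf1b has 8 to 14 in every library.

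The contrast between tissues was looked at because these numbers had been seen, and tissue, developmental stage, sort and library yield cannot be told apart in it. Of the 165 intervals, 23 were open in all 4 thymic libraries and in no bone marrow library, which is 13.9% (Wilson 95% interval 9.47 to 20.05, counting error only) against 6.78% of all intervals near genes. The opposite class, open in all 5 bone marrow libraries and in no thymic one, held 2 intervals (1.21%), against 1.87%, with 4 without CLP replicate 1 and 1 without CLP replicate 3. By an exact permutation test of peaks per gene over the 126 arrangements of libraries, two-sided, 16 of the 38 genes had more peaks in thymus at an unadjusted p under 0.05, against 21.1% of the 16981 genes with a peak, and 1 had fewer, against 6.87%. None of them passed after Benjamini-Hochberg adjustment over all 16981 genes, where the smallest adjusted p of any gene was 0.0695. The test treated libraries as exchangeable, although those of a tissue are replicates of sorted cell types (CD4SP and NKT, or CLP and ILCP). Its p therefore measures spread between libraries and not between cell types. With an equal number of peaks per library, 19 of 34 family genes had more peaks in thymus, against 18.3% of all genes, and 2 (Tnfrsf11b and Tnfrsf21) had fewer, against 10.7%. Without CLP replicate 1, Tnfrsf25 alone of the 17 genes missed 0.05 (exact permutation p = 0.0857). The median difference of thymus minus bone marrow was 1.25 peaks over the 38 genes and 0.3 over all genes tested. Neighbouring genes with overlapping windows, such as Tnf, Lta and Ltb, Tnfrsf4 and Tnfrsf18, or Tnfrsf22 and Tnfrsf26, can count the same peak. Their calls are therefore not independent.

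**Figure D2:**
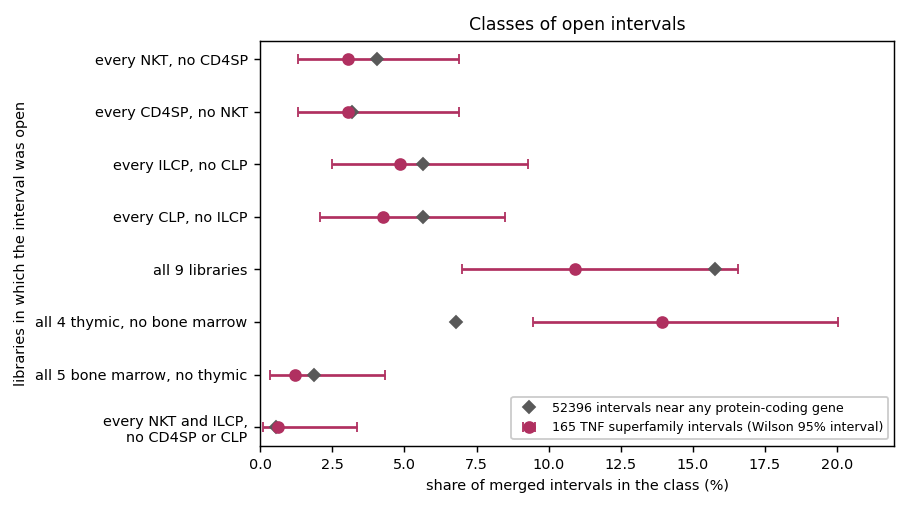
Share of merged intervals (x axis, percent) in 8 classes defined by the libraries in which they were open (y axis), for the 165 intervals of the TNF superfamily (circles, with Wilson 95% intervals) and for the 52396 intervals within 10 kb of any protein-coding gene (diamonds). The share open in all 4 thymic and no bone marrow library is 13.9% against 6.78%, and the other 7 family intervals contain the diamond of their class.

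The ligands TNF and lymphotoxin, whose windows share most of their peaks, were nearly without peaks in bone marrow. Tnf encodes a proinflammatory cytokine, and Lta and Ltb encode the subunits of lymphotoxin, which shapes lymph nodes and Peyer's patches. The 3 genes sit together on chromosome 17 (35194439 to 35205351) and had 8 intervals in their windows together, of which some lay in the windows of all 3. Together the windows held 8, 7, 7 and 9 peaks in the CD4SP and NKT libraries, 0, 1 and 2 in CLP and 0 and 0 in ILCP. The groups did not overlap, and ILCP libraries had no peak anywhere in the 3 windows. For Ltb alone the thymic libraries had 7, 6, 7 and 8 peaks and the bone marrow libraries 0, 1, 2, 0 and 0, a difference of 6.4 (exact permutation p = 0.00794, the smallest these libraries can give, adjusted p = 0.0695). With an equal number of peaks per library the differences were 4.25 for Ltb, 3.75 for Tnf and 3.75 for Lta. Without the flank, which holds most of the shared peaks, they were 1.8, 1.35 and 1 (exact permutation p = 0.0159, 0.0476 and 0.00794). A peak lay within 500 bp of the Tnf and Lta starts in every thymic library and in no bone marrow library, and at the Ltb start in every thymic library and in CLP replicate 3. The interval at the Lta start (chr17:35204116-35205857) ranked at 25.1% and 17.0% in CD4SP and 43.1% and 25.3% in NKT.

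The receptors for these ligands did not follow that pattern. Tnfrsf1b, which encodes TNF receptor 2, had the most peaks of the family, with 12, 11, 12 and 11 in the thymic libraries, 9, 14 and 14 in CLP and 12 and 8 in ILCP. The groups overlapped, and the difference between tissues was 0.1 peaks (exact permutation p = 1). Tnfrsf1a, which encodes TNF receptor 1, had 6 and 5 peaks in CD4SP, 4 and 4 in NKT, 2, 4 and 4 in CLP and 3 and 3 in ILCP. Its start was open in every thymic library and in CLP replicates 2 and 3, and in neither ILCP library. Without the flank Tnfrsf1a had more peaks in thymus at an unadjusted exact permutation p under 0.05, but not in the main comparison. Ltbr, the lymphotoxin β receptor, had a single interval, at its start, open in CLP replicates 2 and 3 alone. Together the 3 TNF and lymphotoxin ligands averaged 7.75 peaks in thymus and 0.6 in bone marrow, whereas the 3 receptors averaged 16.25 and 15.

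Death ligands and receptors lay between these. Fasl, which encodes the ligand that kills Fas-bearing cells, had 5, 4, 4 and 4 peaks in thymus, 1, 3 and 3 in CLP and 2 and 2 in ILCP, with no overlap (difference 2.05, exact permutation p = 0.00794, adjusted p = 0.0695). The Fasl difference was 0.9 with an equal number of peaks per library (exact permutation p = 0.159) and 1.0 without the flank (exact permutation p = 0.00794). Its start interval (chr1:161787830-161789108) ranked at 4.09%, 9.91%, 11.4% and 13.0% in the thymic libraries and had no peak in bone marrow. Fasl, Tnf and Lta were the 3 family genes whose start was open in all thymic and no bone marrow library, a pattern of 1.14% of all genes. Fas had 4, 5, 4 and 3 peaks in thymus and 0, 1, 1, 1 and 0 in bone marrow (difference 3.4, exact permutation p = 0.00794; 1.85 with an equal number of peaks, exact permutation p = 0.0238), and its start was open in every thymic library and in CLP 2, CLP 3 and ILCP 1. Tnfsf10, which encodes TRAIL, differed little, with 3, 4, 2 and 4 peaks in thymus and 2, 4, 4, 5 and 4 in bone marrow, and its start was open in all 9 libraries. Tnfrsf10b, the TRAIL receptor, had 2 peaks in each CD4SP library and 1 in each NKT library, with 0, 1 and 1 in CLP and 0 and 1 in ILCP, and no open start. Tnfrsf21 (death receptor 6) leaned the other way, with 1, 1, 2 and 1 peaks in thymus, 4, 5 and 4 in CLP and 1 and 2 in ILCP. Tnfrsf25 (death receptor 3) had 3, 3, 2 and 3 peaks in thymus, 0, 2 and 2 in CLP and none in ILCP (exact permutation p = 0.0476), and missed 0.05 when any library other than NKT replicate 1 was left out (exact permutation p = 0.0571 to 0.0857).

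Costimulatory receptors made up the largest role by intervals, with 41 for 7 genes, and averaged 30.25 peaks in thymus and 14.6 in bone marrow. Tnfrsf9 (4-1BB) had 7, 8, 7 and 7 peaks in thymus, 2, 2 and 2 in CLP and 3 and 2 in ILCP (difference 5.05, exact permutation p = 0.00794, adjusted p = 0.0695). Its difference was 2.8 with an equal number of peaks per library (exact permutation p = 0.00794). Tnfrsf4 (OX40) had 4, 4, 3 and 3 in thymus, 0, 1 and 1 in CLP and none in ILCP. Tnfrsf18 (GITR), next to it, had 4, 5, 4 and 4 in thymus, 1, 3 and 3 in CLP and 0 and 1 in ILCP. The windows of Tnfrsf4 and Tnfrsf18 overlap and share peaks, so these counts are not independent. Both genes are known for high levels on regulatory T cells. Without the 10 kb flank the differences were 0.5 for Tnfrsf4 and 0.6 for Tnfrsf18 (exact permutation p = 0.167 for each). The interval between them (chr4:156020984-156022998, 4173 bp upstream of Tnfrsf18) ranked at 7.45%, 7.201%, 8.44% and 8.35% in the 4 thymic libraries and was not called in bone marrow. Its central 200 bp, shown above, held E protein, GATA, Ets and T-box words. Cd27, a receptor of T cells and early lymphoid cells, had 7 and 7 peaks in CD4SP, 5 and 5 in NKT, 1, 4 and 4 in CLP and 2 and 0 in ILCP (thymus minus bone marrow 3.8, exact permutation p = 0.0238, adjusted p = 0.146). Without the flank, part of which lies in Vamp1, the Cd27 difference was 0.65 (exact permutation p = 0.278).

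Tnfrsf8 (CD30) and Tnfrsf14 (HVEM, the receptor of LIGHT) overlapped between tissues. Tnfrsf8 had 9, 7, 9 and 12 peaks in thymus, 3, 9 and 10 in CLP and 5 and 6 in ILCP (exact permutation p = 0.206). Tnfrsf14 had 2 in each thymic library, 1, 3 and 3 in CLP and 1 and 2 in ILCP. Among the costimulatory ligands, Cd40lg had 4 peaks in every thymic library, 0, 1 and 1 in CLP and 1 and 0 in ILCP (difference 3.4, exact permutation p = 0.00794), although no library had a peak within 500 bp of its start. The Cd40lg difference was 1 with an equal number of peaks per library (exact permutation p = 0.00794) and 1.8 without the flank (exact permutation p = 0.0159). Tnfsf8 (CD30 ligand) had 7, 7, 7 and 5 in thymus, 1, 4 and 4 in CLP and none in ILCP (difference 4.7, exact permutation p = 0.0238). The Tnfsf8 difference was 1.6 with an equal number of peaks per library (exact permutation p = 0.206) and 2.85 without the flank (exact permutation p = 0.0238). Tnfsf9 (4-1BB ligand) and Tnfsf4 (OX40 ligand) had 1 to 3 peaks in thymic libraries and 0 to 2 in bone marrow libraries. Tnfsf14 (LIGHT) had 1, 2, 2 and 2 peaks in thymus, 2 in each CLP library and 3 in each ILCP library, and its start was open in all 9.

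**Figure D3:**
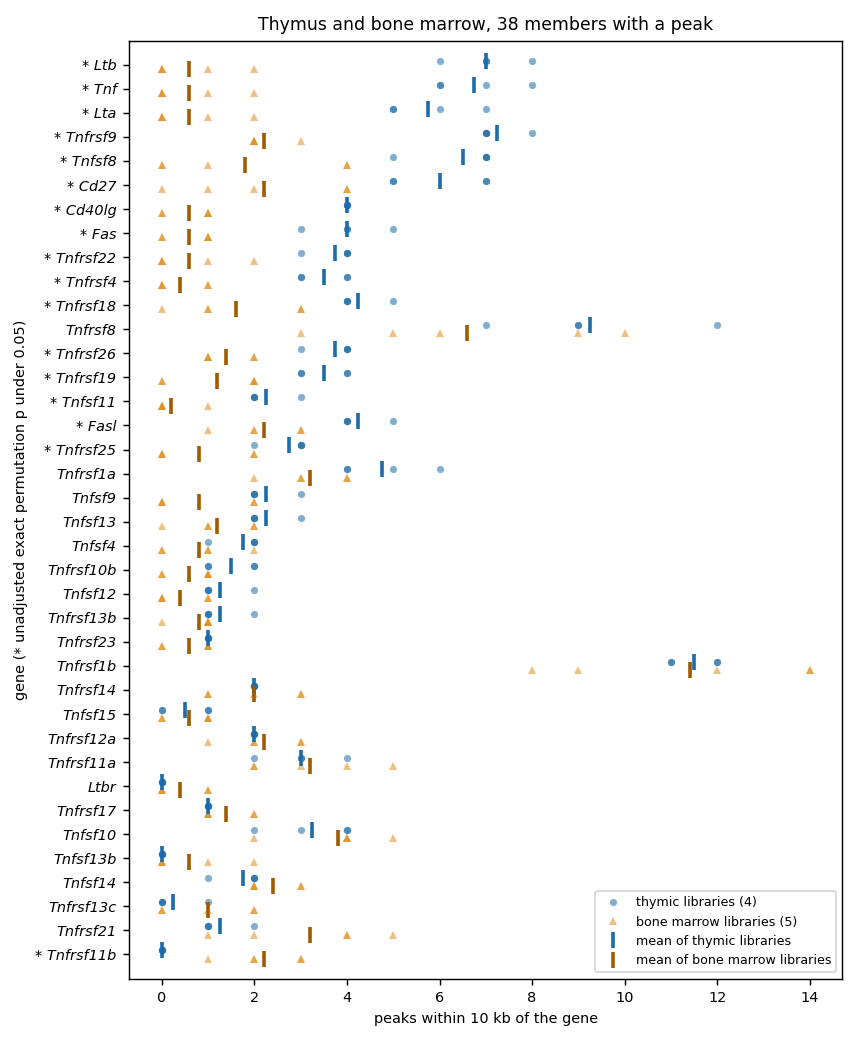
Peaks within 10 kb of each of the 38 genes with a peak (x axis) in the 4 thymic libraries (circles) and the 5 bone marrow libraries (triangles), with bars at the means and genes ordered by the difference of means. Asterisks mark the 17 genes with an unadjusted exact permutation p under 0.05, of which Tnfrsf11b at the bottom is the only one with fewer peaks in thymus.

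B cell survival genes of the BAFF and APRIL branch were sparse. Tnfsf13b (BAFF) had 1 and 2 peaks in CLP replicates 2 and 3 and none elsewhere. Its receptor Tnfrsf13c had 2 in each of those libraries, 1 in NKT replicate 2 and 1 in ILCP replicate 2. Tnfrsf17 (BCMA) had 1 or 2 in every library and Tnfrsf13b (TACI) 0 to 2. The windows of Tnfsf13 (APRIL) and Tnfsf12 (TWEAK) lie side by side, neither start was open in any library, and the interval of Tnfsf13 open in all 9 libraries lay at the start of Eif4a1.

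Among the remaining genes, Tnfrsf11b stood alone. It encodes osteoprotegerin, the soluble decoy receptor of RANK ligand, and had no peak in any thymic library, 1, 2 and 3 in CLP and 3 and 2 in ILCP (difference -2.2, exact permutation p = 0.0159, adjusted p = 0.118). Its interval in a UTR (chr15:54251116-54252305) ranked at 11.6% and 12.8% in ILCP and at 99.6%, 27.8% and 30.6% in CLP. Tnfrsf11a, which encodes RANK, had 3, 4, 3 and 2 peaks in thymus, 2, 5 and 4 in CLP and 3 and 2 in ILCP. It held the other interval open in every bone marrow and no thymic library (chr1:105785868-105787815, intron, 6123 bp from the start). Tnfsf11, the RANK ligand, had 2, 2, 2 and 3 peaks in thymus and a single peak in bone marrow, in CLP replicate 3. Of the decoy and related receptors, Tnfrsf22 had 3, 4, 4 and 4 peaks in thymus and 0, 2, 1, 0 and 0 in bone marrow, Tnfrsf26 had 3 or 4 and 1 or 2, and Tnfrsf23 had 1 in each thymic library and 0 or 1 in bone marrow. The Tnfrsf22 difference was 3.15, and 0.8 without the flank (exact permutation p = 0.0476). Reads from these neighbouring and related genes may be hard to place. Tnfrsf19 (TROY) had 3 or 4 peaks in thymus and 0 to 2 in bone marrow (difference 2.3). Its difference was 1.3 without the flank (exact permutation p = 0.159) and 2.13 without CD4SP replicate 2 or NKT replicate 2 (exact permutation p = 0.0714 for each). Tnfrsf12a (the TWEAK receptor) had 2 in each thymic library and 1 to 3 in bone marrow.

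Gene starts gave the same ordering of cell types. A start was open in every library of the type for 27 genes in CD4SP (65.9%, against 47.5% of all protein-coding genes), 24 in NKT (58.5% against 47.8%), 8 in CLP (19.5% against 36.9%) and 6 in ILCP (14.6% against 36.7%). The family was thus above the background in both thymic types and below it in ILCP. In CLP it was below the background only with CLP replicate 1 included. CLP replicate 1 set the CLP value, and without it 23 genes (56.1%, against 52.7% of all genes) had an open start in CLP. Each ILCP library taken alone had 10 open starts (24.4%, against 40.7% and 39.5% of all genes). The 5 starts open in all 9 libraries (12.2%, against 30.6% of all genes) were those of Tnfsf10, Tnfsf14, Tnfrsf1b, Tnfrsf9 and Tnfrsf21, and Tnfrsf11b was the sixth of ILCP. No library had an open start for 10 genes (24.4%, against 38.7% of all genes), namely Tnfsf18, Cd40, Tnfsf15, Tnfrsf13b, Tnfsf13, Tnfsf12, Tnfrsf10b, Tnfrsf17, Cd70 and Cd40lg.

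NKT and CD4SP thymocytes differed at few family intervals. Specific to a type here means that all libraries of the type had the interval open while both or all libraries of the other did not. There were 5 specific to NKT (3.03%, against 4.06% of all intervals near genes) and 5 specific to CD4SP (3.03% against 3.17%), both near the background. Leaving out 1 library moved the NKT count to 8 (4.91%, against 7.52%, without CD4SP replicate 2) or 10 (6.1%, against 8.64%, without NKT replicate 1). It moved the CD4SP count to 13 (8.12%, against 6.88%, without CD4SP replicate 1) or to 11 (6.75%, against 5.42%, without CD4SP replicate 2, and 6.79%, against 6.21%, without NKT replicate 2). By peaks per gene, NKT was above CD4SP without overlap for Tnfsf15 alone, against 7.84% of all genes, and CD4SP was above NKT for Tnfrsf4, Cd27, Tnfrsf1a and Tnfrsf10b, against 5.48%. A comparison of 2 with 2 libraries cannot give an exact permutation p below 0.333, so no gene could pass a test within the thymus.

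The NKT-specific intervals lay at ligands and at CD30. The interval 3627 bp downstream of the Tnfsf9 start (chr17:57108486-57109418) was called in NKT alone, at 58.8% and 60.1%. The interval downstream of Tnfsf14 (chr17:57188408-57189567, 5190 bp past the start) ranked at 41.6% and 40.1% in NKT and was also open in all 5 bone marrow libraries, at 38.9% and 35.5% in ILCP and 54.4% to 91.5% in CLP. CD4SP was therefore the only type without it. Tnfsf15 (TL1A) had an interval 8913 bp upstream at 71.9% and 69.0% in NKT and 88.4% in ILCP replicate 2. The other 2 lay in introns of Tnfrsf8, at chr4:145301754-145302757 (85.2% and 93.9% in NKT, 73.6% in CLP replicate 3) and at chr4:145274617-145275640. The latter was open in both NKT libraries (46.8% and 59.2%) and both ILCP libraries (74.8% and 91.5%) and in no CD4SP or CLP library. It was the only family interval with that pattern, against 0.557% of all intervals near genes, and its central 200 bp held a Runx and an E protein word.

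The CD4SP-specific intervals lay at costimulatory genes and at the TRAIL receptor. The Tnfrsf4 start (chr4:156013271-156014367) ranked at 35.4% and 43.6% in CD4SP and was open in no other library. Counting all annotated starts of a gene, Tnfrsf4 was the only one with an open start in every CD4SP library and none in NKT. The interval in an intron of Tnfrsf9 (chr4:150927090-150928055), also within Camta1 and within 500 bp of an alternative Tnfrsf9 start, ranked at 77.0% and 74.4%. Tnfrsf9 as a gene had an open start in all 9 libraries. The interval 7801 bp upstream of Cd27, in an intron of Vamp1, ranked at 69.1% and 81.1%. Those 8021 bp upstream of Tnfsf8 (72.8% and 93.1%) and in an intron of Tnfrsf10b (90.1% and 84.3%) were low in the list. All 5 were called in CD4SP libraries alone.

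ILCP and CLP differed at shares of intervals near the background, with and without CLP replicate 1. There were 8 ILCP-specific intervals (4.85%, against 5.65%) and 7 CLP-specific intervals (4.24%, against 5.64%). Without CLP replicate 1 the CLP-specific count was 35 (21.2%, against 21.5% of all intervals near genes) and the ILCP-specific count 8 (4.85%, against 5.67%). The CLP-specific count was 13 without ILCP replicate 1 (7.93%, against 7.14%) and 11 without ILCP replicate 2 (6.67%, against 6.93%). By peaks per gene, ILCP was above CLP without overlap for Tnfsf14, against 4.55% of all genes, and CLP was above ILCP for Tnfsf8 and Tnfrsf21, against 8.37%. The smallest exact permutation p of 2 against 3 libraries is 0.1.

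The best-ranked of the ILCP-specific intervals lay in Tnfrsf9 (chr4:150923876-150925562, in an intron and at an alternative start, also within Camta1). It ranked at 7.62% and 8.69% in ILCP, was not called in CLP, and ranked at 92.1% and 44.0% in CD4SP and 30.7% and 41.0% in NKT. Tnfrsf9 thus had few peaks in ILCP, of which this ranked above the same interval in every thymic library. An interval in an intron of Tnfrsf1a (chr6:125352536-125354280) had the same distribution, with 39.9% and 19.4% in ILCP and 36.6% to 62.2% in thymus, and held Runx and GATA words. An interval near the start of Tnfrsf8 (chr4:145312080-145313347) was also open in thymus and ILCP, at 41.7% and 44.8% in ILCP. Intervals in introns of Tnfrsf11a (82.5% and 80.7%) and Tnfrsf1b (63.3% and 54.2%) and upstream of Tnfsf14 in an exon of C3 (72.3% and 72.8%) were called in ILCP alone. An intron of Tnfsf10 (59.3% and 83.3%) and the CD30 interval described above made up the 8.

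The CLP-specific intervals included the start of Tnfsf8 (chr4:63859412-63863755), which ranked at 55.1%, 28.6% and 28.0% in CLP and 22.5% to 36.8% in thymus and was not called in ILCP. Tnfsf8 was the only family gene whose start was open in every CLP and no ILCP library. Tnfrsf21 had 2, deep in its introns (16410 and 42296 bp from the start), at 29.5% to 73.2% in CLP and in no other type. Tnfrsf17 (3718 bp from the start, 57.5%, 30.4% and 36.3%), Tnfrsf11a (20673 bp, 82.5%, 32.9% and 32.0%) and Tnfrsf14 (928 bp upstream, 66.6%, 77.4% and 52.8%) had 1 each that was called in CLP alone. The remaining interval of the 7 lay at the end of Tnfrsf8 and was also open in CD4SP replicate 1 and both NKT libraries.

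**Figure D4:**
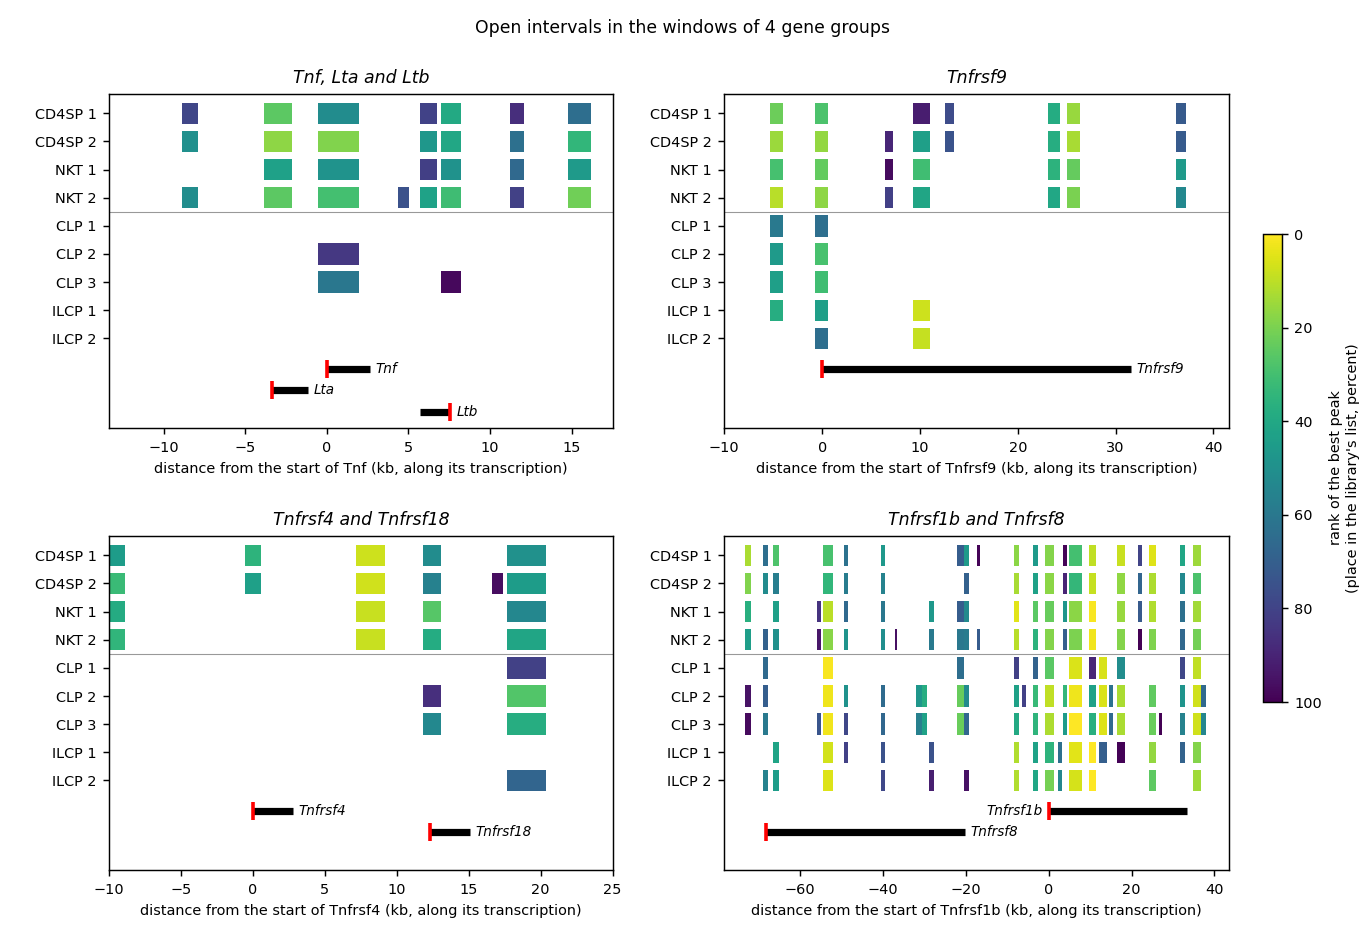
Merged intervals in the windows of 4 gene groups, drawn in each library (rows) in which they were open, against distance from a gene start in kb, with colour giving the rank of the best peak there (yellow, near the top of the library's list). Black bars are genes, red ticks their starts. Tnf, Lta and Ltb are nearly empty in bone marrow, Tnfrsf9 has in ILCP a well-ranked interval near 10 kb, and Tnfrsf1b is covered in all types.

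Peaks per gene were also compared over both tissues at once, as NKT minus CD4SP plus ILCP minus CLP, by an exact permutation of labels within each tissue. Over 60 arrangements the smallest possible p is 0.0167. No family gene passed an unadjusted p under 0.05, against 0.824% of genes with a positive and 0.742% with a negative difference, and no gene of the 16981 passed after adjustment. The lowest p were those of Tnfsf14 (summed difference 1.5, exact permutation p = 0.05) and Cd27 (-4, exact permutation p = 0.05). Leaving out a CD4SP, NKT or ILCP library gave at most 1 gene under 0.05, which was Tnfsf14 without CD4SP replicate 2, Tnfsf8 without NKT replicate 1 and Cd27 without ILCP replicate 1. With a CLP library left out the smallest possible exact permutation p is 0.0556, so no gene could pass. With an equal number of peaks per library, Tnfsf14 (2.67) and Tnfrsf1a (2) passed, each with an exact permutation p = 0.0333. The share of all genes passing was not counted for these alternative settings, so the calls have no background to be read against.

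In the 18 intervals open in all 9 libraries (10.9%, against 15.8% of all intervals near genes) the ranks could be compared. They included 8 of the 25 intervals of the TNF and lymphotoxin receptors, and none of the 8 of their ligands. By the same test of the rank, 2 had better ranks in NKT and ILCP at an unadjusted exact permutation p under 0.05, against 3.64% of the 8267 such intervals, and 2 had worse ranks, against 4.77%. None passed after adjustment over the 8267, where the smallest adjusted p was 0.3497.

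Both intervals with better ranks lay at Tnfrsf1b. The interval in its intron (chr4:145235473-145237061, 10603 bp from the start) ranked at 0.0114% and 0.357% in ILCP, where it was the peak of rank 3 and of rank 92 in the list. It ranked at 89.3%, 43.2% and 36.7% in CLP, 0.873% and 2.16% in NKT and 9.47% and 8.96% in CD4SP. Neither comparison overlapped (exact permutation p = 0.0167, adjusted p = 0.3497). The central 200 bp, shown above, held a Runx word. The interval 7742 bp upstream of the start (chr4:145253977-145255248) ranked at 12.002% and 11.9% in ILCP, 80.9%, 42.8% and 39.8% in CLP, 4.44% and 10.9% in NKT and 17.5% and 13.0% in CD4SP (exact permutation p = 0.0167, adjusted p = 0.3497), and held Runx and AP-1 words. Without CLP replicate 1 the summed differences in percent were -47.5 in place of -63.9 in the intron and -36.9 in place of -50.1 upstream, where the test could not pass. Both calls were lost without either ILCP library (exact permutation p = 0.0833 in the intron and 0.167 upstream), and the upstream one without CD4SP replicate 1 (exact permutation p = 0.0667). With an equal number of peaks per library they were -99.9 and -82.0 (exact permutation p = 0.0167 for each). A further interval of Tnfrsf1b, 6408 bp from the start, was instead well ranked in both bone marrow types, at 5.82%, 2.43% and 0.187% in CLP and 4.58% and 6.55% in ILCP, against 29.9% and 33.7% in CD4SP and 17.3% and 19.6% in NKT (the CLP replicate 2 peak was tied at 3100). The start of Tnfrsf1b ranked at 9.51% to 35.3% in all libraries.

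The 2 intervals with worse ranks lay at the death ligands. The start of Tnfsf10 ranked at 57.7% and 26.3% in ILCP against 15.4%, 10.1% and 9.84% in CLP, and at 9.45% and 14.9% in NKT against 7.45% and 10.1% in CD4SP (exact permutation p = 0.0333, adjusted p = 0.396). An interval 6301 bp upstream of Fasl ranked at 83.1% and 72.4% in ILCP, 48.6%, 37.0% and 41.4% in CLP, 47.6% and 70.4% in NKT and 40.1% and 50.02% in CD4SP (exact permutation p = 0.0333, adjusted p = 0.396). The summed difference at the Tnfsf10 start was 33.6, and 17.9 without ILCP replicate 1 or 49.3 without ILCP replicate 2 (exact permutation p = 0.0833 for each), and the call was also lost without CD4SP replicate 1 or NKT replicate 2 (exact permutation p = 0.0667 for each). The Fasl interval lost its call without either ILCP library (exact permutation p = 0.0833), without CD4SP replicate 1 (exact permutation p = 0.1) and without CD4SP replicate 2 or NKT replicate 2 (exact permutation p = 0.0667 for each). Neither test could pass without a CLP library. In the thymus the ranks of both overlapped between NKT and CD4SP. The Fasl interval could not be ranked with an equal number of peaks per library, since it was not among the retained peaks of every library.

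**Figure D5:**
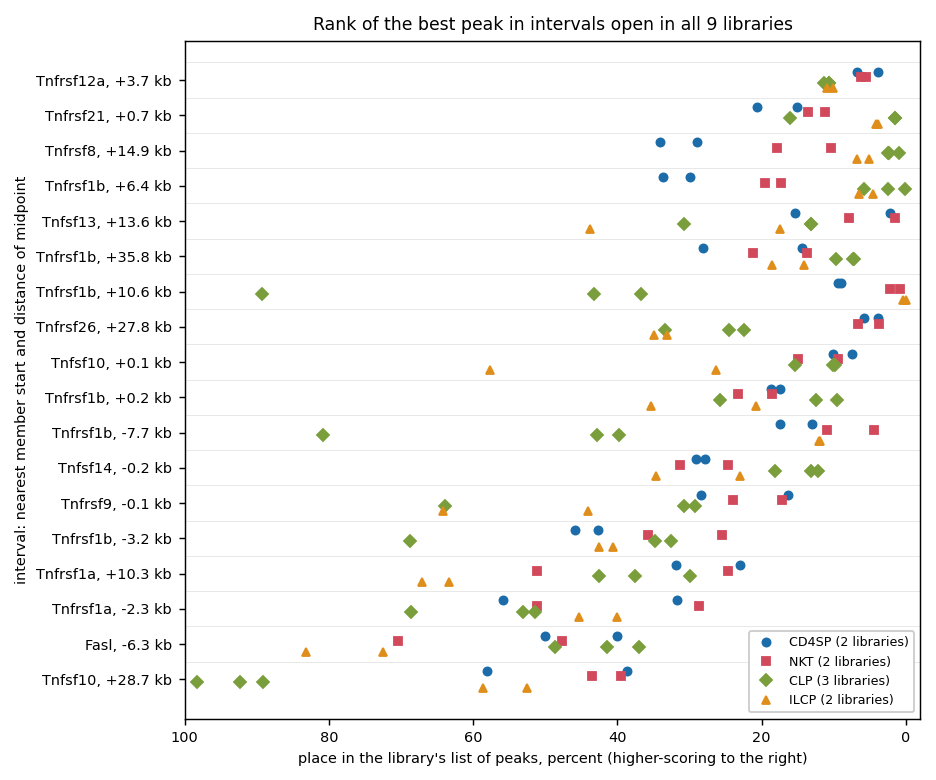
Rank of the best peak in each library (x axis, place in the library's list in percent, with high-scoring peaks to the right) for the 18 intervals open in all 9 libraries (y axis, named by the nearest family gene start and the distance of the interval's midpoint from it). In the Tnfrsf1b intron at +10.6 kb the ILCP triangles sit at the right edge while the CLP diamonds lie between 36.7% and 89.3%.

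Words for Runx, TCF/LEF, GATA and Ets factors were about as frequent in the family's intervals as elsewhere. Those for E proteins, NF-kB, AP-1 and T-box factors were more frequent. A Runx word lay in the central 200 bp of 27.9% of the 165 intervals, against 27.4% of all intervals near genes. An E protein word lay in 38.8%, against 27.5%, an NF-kB word in 1.82% (3 intervals), against 0.584%, and an AP-1 word in 6.67%, against 4.39%. The shares were 10.9% against 9.46% for TCF/LEF, 12.1% against 14.5% for GATA, 15.2% against 14.4% for Ets and 1.82% against 0.809% for T-box. A Runx word was found in 4 of the 8 ILCP-specific intervals, against 54.2% of the ILCP-specific intervals near all genes, and in 9 of the 18 intervals open everywhere, against 18.4%. The counts by class and those of the NF-kB and T-box words are small, and a match is only a match of letters. Differences in the share of words were not tested.

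Signalling genes downstream of the receptors were looked at in the same way. Of 19 adaptors and signal transducers (TRAFs, death-domain adaptors, caspase-8, inhibitors of apoptosis and kinases of NF-kB), starts were open in every library for 19 in CD4SP, 18 in NKT, 13 in CLP and 14 in ILCP, and 12 were open in all 9 libraries, a state of 30.6% of all genes. The starts of Cflar, Tradd, Traf3 and Chuk were open in CLP replicates 2 and 3 but not in CLP replicate 1. By the exact permutation test between tissues, 10 of these 19 had more peaks in thymus at an unadjusted p under 0.05 and 0 had fewer, with a median difference of 1.25 peaks, where 21.1% of all genes had more and 6.87% fewer. Of the 24 receptors, 9 had more peaks in thymus and 1 fewer. Of 8 NF-kB subunits and inhibitors, starts were open for 7 in CD4SP, 7 in NKT, 7 in CLP and 4 in ILCP, and 1 had more peaks in thymus and 0 fewer. ILCP replicate 2 set the ILCP number, since the starts of Nfkb1, Nfkbie and Nfkb2 were open in ILCP replicate 1 but not there. Of 5 superfamily genes outside the naming rule (Ngfr, Eda, Edar, Eda2r and Relt), starts were open for 2 in CD4SP, 2 in NKT, 2 in CLP and 4 in ILCP, and 0 had more and 2 fewer peaks in thymus. CLP replicate 1 set the CLP number, since all 5 starts were open in CLP replicates 2 and 3. Differences between these lists were not tested.

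Markers of the labelled cell types were checked as the number of peaks in their windows. The 7 T lineage genes held 21 to 32 peaks in thymic libraries, 4 to 10 in CLP and 6 in each ILCP library. Their starts were mixed, those of Cd4 and Cd3e being open in every thymic and no bone marrow library and those of Lck and Cd3d in every library. The Bcl11b start was open in all libraries but CLP replicate 1. That of Cd8b1 was open in all thymic libraries but NKT replicate 1, and that of Cd8a in CD4SP replicate 2 and CLP replicate 2 alone. The start of Zbtb16 was open in both NKT and both ILCP libraries, in no CD4SP library and in CLP replicate 2, and its window held 13 and 12 peaks in NKT against 3 and 3 in CD4SP. The 5 NKT genes, Zbtb16 included, held 17 and 18 peaks in NKT against 10 and 8 in CD4SP, so the excess lay in Zbtb16. The Flt3 start was open in all CLP and also in both ILCP libraries, and that of Dntt in CLP replicates 2 and 3 alone. The 5 CLP genes held 15 to 21 peaks in CLP and 11 to 22 elsewhere, and the 8 ILCP genes 35 and 30 in ILCP, 12 to 33 in CLP and 48 to 56 in thymus, so neither of these lists was highest in its own type. Of genes of other cells, 5 B lineage genes held 18 and 20 peaks in CLP replicates 2 and 3 and 6 to 12 in the other libraries. Myeloid genes (5) held 2 to 7 peaks, erythroid genes (3) 4 to 7 and NK genes (3) 1 to 5. Of the NK genes, the Ncr1 start was open in both ILCP libraries alone and that of Klrk1 in no library. The Eomes start was open in CD4SP replicate 2, NKT replicate 2 and CLP replicates 2 and 3. The part of other cells in the family's values was not tested.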

How the data were processed

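The authors prepared ATAC-seq libraries from sorted cells, aligned 50 bp reads to mm10 with Bowtie allowing 2 mismatches, and deposited 1 peak list per library, not pooled over replicates. The submitters' processing notes also name Picard and HOMER. Peaks were called with MACS, whose version and settings are not given in the sources used here. Each deposited peak has a score, whose scale is not stated and which was used only as a rank within its library. Runx1 ChIP-seq from NKT cells was not used here. The study calls its replicates biological, but the labels do not tie libraries to mice, so p-values measure the spread between these libraries.

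Genes, starts and sequences came from GENCODE M21 on GRCm38.p6. Peaks were merged over libraries and counted per gene as described above, with Python 3.11.15, numpy 2.4.6, pandas 2.3.3, scipy 1.17.1, statsmodels 0.14.6, pysam 0.24.0 and matplotlib 3.10.9. Per-gene and per-interval tests were exact permutation tests, two-sided, adjusted by Benjamini-Hochberg over all genes or intervals tested, and were tested on simulated data. Genes were described in full where they held an interval or start specific to a type, and other genes by counts and ranges or where the tissue comparison turned on them. The genes, lists and tests were chosen with earlier results of these data known. The comparison of thymus with bone marrow and the sequences named as such were added after values had been seen. Alternatives changed the number of peaks used, the flank, the rule for an open interval or start, the scaling, the replicate block and the libraries included.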

Additional observations from a re-analysis of the deposited data

Results flagged for a closer look

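An interval in an intron of Tnfrsf8 (14943 bp from the start), open in all 9 libraries, differed in opposite directions in the 2 tissues. It ranked at 28.9% and 34.0% in CD4SP and 10.3% and 17.8% in NKT, so that the mean percent was lower, and the rank better, in NKT (NKT minus CD4SP -17.4 percentage points). It ranked at 1.03%, 2.43% and 2.31% in CLP and 6.81% and 5.09% in ILCP, so that the rank was worse in ILCP (ILCP minus CLP 4.02 percentage points). The peaks of CLP replicates 2 and 3 were tied with many others at a score of 3100, and with the place of the last tied peak they ranked at 3.32% and 3.13%. In percent neither comparison overlapped. In places, which leave out the length of each list, the last tied peaks were at 1380 and 1255 in CLP, CLP replicate 1 was at 199 and ILCP at 1792 and 1311, so CLP and ILCP overlapped. The lack of overlap in bone marrow thus depends on the tied score and on list length, and the difference between the tissues was not tested.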

How the results depend on the processing

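Of 194 recomputed counts and sums, 158 stayed within 1.5 times the reported count or within the replicate spread. With an equal number of peaks per library, NKT minus CD4SP reversed to 1 peak, ILCP minus CLP was -6.83 (within the spread that CLP replicate 1 widens), 3 intervals were NKT-specific and 2 CD4SP-specific, and 2 genes passed the test over both tissues. With the higher-scoring 50% of peaks, NKT minus CD4SP reversed to 0.5, the specific counts were 2 (NKT), 3 (CD4SP) and 5 (ILCP), 4 starts were open in CLP, 1 gene passed and 9 intervals were open in all libraries. A 5 kb flank gave 3 CD4SP-specific intervals. Without a flank, NKT minus CD4SP was 0, NKT-specific and CD4SP-specific counts were 3 and 3, and 9 intervals were open in all libraries. Per 10000 peaks 1 gene passed (Tnfrsf18). For the counts in these settings the shares over all genes or all intervals near genes were not counted, so they describe dependence on processing only. Counting intervals open in any library of a type gave 11 (NKT, 6.67% against 10.6% of all intervals near genes), 19 (CD4SP, 11.5% against 8.83%), 12 (ILCP, 7.27% against 9.58%) and 47 (CLP, 28.5% against 31.3%) specific intervals. The cause of these shifts was not tested.

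Leaving out each library in turn, NKT minus CD4SP ran from -8.5 to -0.5 and ILCP minus CLP from -43.5 to -15. Specific intervals ran from 5 to 10 (NKT), 5 to 13 (CD4SP), 8 to 11 (ILCP) and 7 to 35 (CLP). Open starts numbered 27 (CD4SP), 24 to 27 (NKT), 8 to 23 (CLP) and 10 (ILCP). Between 0 and 1 genes passed over both tissues, 18 to 24 intervals were open in all libraries, 23 to 27 in thymus alone and 1 to 4 in bone marrow alone. Of the 16 genes with more peaks in thymus, 14 to 16 kept the call when a library was left out, 14 with an equal number of peaks and 12 without a flank. Of 204 recomputed single-gene differences between tissues, 188 stayed under 0.05, 16 did not and 0 reversed. Losses with an equal number of peaks were Fasl and Tnfsf8, and those without a flank Tnfrsf4, Tnfrsf18, Cd27 and Tnfrsf19. Of 43 recomputed ranks, 4 of them with shared places for tied peaks (added after seeing the data), 0 reversed. The 12 with a CLP library left out could not reach 0.05 (smallest possible p 0.0556 by exact permutation), and 14 of the other 31 missed it.

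With the replicate block, NKT minus CD4SP was -4.5, ILCP minus CLP was -15 and 0 genes passed, where the design could not pass. Same-numbered libraries correlated at 0.474 (NKT and CD4SP) and -0.0415 (ILCP and CLP) in their deviations over genes, and they share only a number. Read depth that is unknown per library, 2 or 3 libraries per type and the low yield of CLP replicate 1 limit what absent peaks show.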
